A study of Mus musculus with 12 samples.

Results

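The 7 genes described here encode receptor chains for the common gamma chain cytokines: Il2ra, Il2rb, Il2rg, Il7r, Il4ra, Il15ra and Il21r. They were chosen by gene symbol in the scanner files, older aliases included, and are 7 of 21337 distinct gene names on the array. The 7 genes have 13 probes, and the brightest probe, by its mean level across the 12 arrays, stands for each gene. RNA was measured in regulatory T cells (Treg) from C57BL/6 reporter mice, in 4 groups of 3 arrays. IL10- tumour Treg and IL10+ tumour Treg came from VERT-X mice, in which EGFP reports Il10; they were sorted as CD4 T cells positive for CD25 and positive or low for CD120b, from MC38 colon carcinomas grown under the skin for 2 weeks. Total tumour Treg came from MC38 tumours of the same age in FoxP3-EGFP mice and were sorted on EGFP. Spleen Treg came from FoxP3-EGFP mice without tumours and were sorted in the same way. Tumours were pooled before sorting, and each group comprises 3 experiments. Nothing in the labels gives the age or sex of the mice. Reporter strain and sort differ between the VERT-X and FoxP3-EGFP groups, so strain, sort and population cannot be told apart there. CD25 is the protein of Il2ra, so the VERT-X sort acted on a member's own product.

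The common gamma chain, encoded by Il2rg, is shared by the receptors for IL-2, IL-4, IL-7, IL-9, IL-15 and IL-21. Il2ra, Il7r, Il4ra, Il15ra and Il21r encode the chains that make each receptor specific, while Il2rb is shared by the IL-2 and IL-15 receptors. Ligand binding activates the kinases JAK1 and JAK3 and then STAT factors, STAT5 after IL-2, IL-7 and IL-15 and STAT6 after IL-4. Treg depend on IL-2 and are known for high CD25 and low IL-7 receptor protein relative to other CD4 T cells.

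Il2ra and Il7r are shown by sequence. Il2ra had the widest spread in spleen, through 1 array at background, and by its brightest probe passed against spleen in no tumour group. Il7r, by its brightest probe, differed from spleen in all 3 tumour groups. RefSeq windows on GRCm38.p6 were matched by symbol for 6 of the 7 members; Il2rb is the member that was not matched. The 250 bases before each start are given 5′ to 3′ on the gene's strand, at chr2:11642542-11642791 (plus strand) for Il2ra and chr15:9529877-9530126 (minus strand) for Il7r. Capitals mark motif matches: in Il2ra the run covered by overlapping matches to the NF-kB motif, from position -201 before the start, and in Il7r the match to the STAT5 motif TTCNNNGAA, at position -142.
Il2ra: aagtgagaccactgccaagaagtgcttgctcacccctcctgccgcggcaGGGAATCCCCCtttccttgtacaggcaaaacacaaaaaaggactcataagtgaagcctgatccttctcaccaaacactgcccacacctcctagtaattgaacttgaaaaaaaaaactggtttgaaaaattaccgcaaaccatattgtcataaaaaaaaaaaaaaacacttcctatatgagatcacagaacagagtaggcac
Il7r: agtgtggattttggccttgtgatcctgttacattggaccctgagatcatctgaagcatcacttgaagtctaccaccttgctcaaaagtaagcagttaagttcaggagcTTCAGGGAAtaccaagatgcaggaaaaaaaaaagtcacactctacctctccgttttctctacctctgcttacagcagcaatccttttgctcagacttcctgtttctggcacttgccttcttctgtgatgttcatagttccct
Both strands were searched with 7 motifs in windows of 300 bases that also take in 50 bases after the start. The STAT5 motif was found in 8.30% of 32851 windows of that length, and the NF-kB motif in 8.46%. A match describes letters in a window and shows no binding.

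Between 42.2% and 65.4% of probes were well above background on each array, and the 75th percentile of the signal, to which every level here is relative on the log2 scale, ran from 92.3 to 606. Pearson correlations within groups were 0.927 to 0.989. The array labelled spleen Treg replicate 2 did not match its label. Its levels were -1.23 for Ikzf2 and -0.89 for Ctla4, both Treg-associated genes, against 3.12 and 3.27, and 3.12 and 3.29, in the other spleen arrays. Its Cd3e level of 3.42 was close to the 3.24 and 3.16 of the others. The receptor results against spleen are therefore given with and without that array. The Foxp3 probe gave no signal clear of background in the 6 FoxP3-EGFP arrays, and read 2.64 to 4.65 in VERT-X arrays. It therefore does not bear out the Treg label of those 6 arrays, and the reason was not tested. In bulk RNA, fewer cells of a type and less RNA per cell cannot be told apart. The arrays of 1 group come from separate experiments by the labels, but p-values measure only the spread between these samples.

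The 7 genes were compared in 6 contrasts between the 4 groups. In total tumour against spleen Treg, 2 of 7 receptor genes passed the test (limma, adjusted p under 0.05), both lower. Of all 15532 features tested there, 42.3% passed, 22% higher and 20.3% lower, and 34.9% passed without the array labelled spleen Treg replicate 2. The arrays of both groups did not overlap for 5 of 7 receptor genes, and for 65.7% of features. In IL10+ tumour against spleen Treg 1 member was higher and 1 lower. There 50.8% of features passed, 23.9% higher and 26.9% lower, and 44.6% without the doubted array; 3 members and 57.7% of features did not overlap. In IL10- tumour against spleen Treg 1 member passed, lower. There 49% of features passed, 24.3% higher and 24.7% lower, and 42.7% without the doubted array; 1 member and 61.3% of features did not overlap. The shares of members that passed are below those of all features, so the counts are no result about the receptors as a group. Against total tumour Treg, 0 of 7 members passed in IL10+ tumour Treg (1 at an unadjusted p under 0.05, as 16.8% of features), where 0.2% of features passed and 23% did not overlap, none of them a member. In IL10- against total tumour Treg 0 of 7 passed (limma; 1 at an unadjusted p under 0.05, as 15.5% of features), where 0.148% of features did, and 1 member and 27.5% of features did not overlap. Comparisons with spleen share the spleen arrays, and those with total tumour Treg the total tumour arrays.

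Il7r, the specific chain of the IL-7 receptor, was lower in all 3 tumour groups than in spleen. Its brightest probe lies at chr15:9450946-9451005 on mm8. Its levels were 3.27, 4.57 and 3.67 in spleen, 2.78, 2.27 and 2.34 in total tumour Treg, 2.53, 2.78 and 2.80 in IL10+ tumour Treg, and 2.45, 2.26 and 2.76 in IL10- tumour Treg. Every tumour array was below every spleen array, and the highest spleen value came from the array labelled spleen Treg replicate 2. The difference of total tumour from spleen Treg was -1.37 ± 0.30 (SE, limma, adjusted p = 0.005), or -1.01 without that array (adjusted p = 0.00849). The difference of IL10+ tumour from spleen Treg was -1.13 ± 0.30 (adjusted p = 0.0105), and -0.77 without that array (adjusted p = 0.0218). The difference of IL10- tumour from spleen Treg was -1.35 ± 0.30 (adjusted p = 0.00458), and -0.98 without that array (adjusted p = 0.00778).

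Only the brightest of the 3 Il7r probes passed the test. The next brightest, at chr15:9455913-9455972, differed by -1.26 in total tumour against spleen Treg (adjusted p = 0.066 over 23338 probes), -0.40 in IL10+ and -0.53 in IL10- tumour Treg. Without the array labelled spleen Treg replicate 2 these became -0.79, 0.07 and -0.06. The dimmest probe, at chr15:9457540-9457599, was well above background on 7 of 12 arrays and differed by -0.35, -0.03 and 0.25. With slide as a fixed block, the Il7r differences were -1.49 (adjusted p = 0.0731) for total, -1.49 (0.195) for IL10+ and -1.77 (0.219) for IL10- tumour Treg. With the probes of the gene averaged they were -0.99 (0.0544), -0.52 (0.266) and -0.54 (0.249), and none passed. With a scan day block, the IL10- difference of -1.60 did not pass, but that block ties the VERT-X arrays to spleen through IL10+ replicate 1 alone. On the slide that held 1 total tumour array and all spleen arrays, Il7r differed by -1.49, or -1.13 without the doubted array. The VERT-X and spleen arrays share no slide, and IL10+ replicate 3, alone on its slide, carries no weight in the fixed block.

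**Figure D1:**
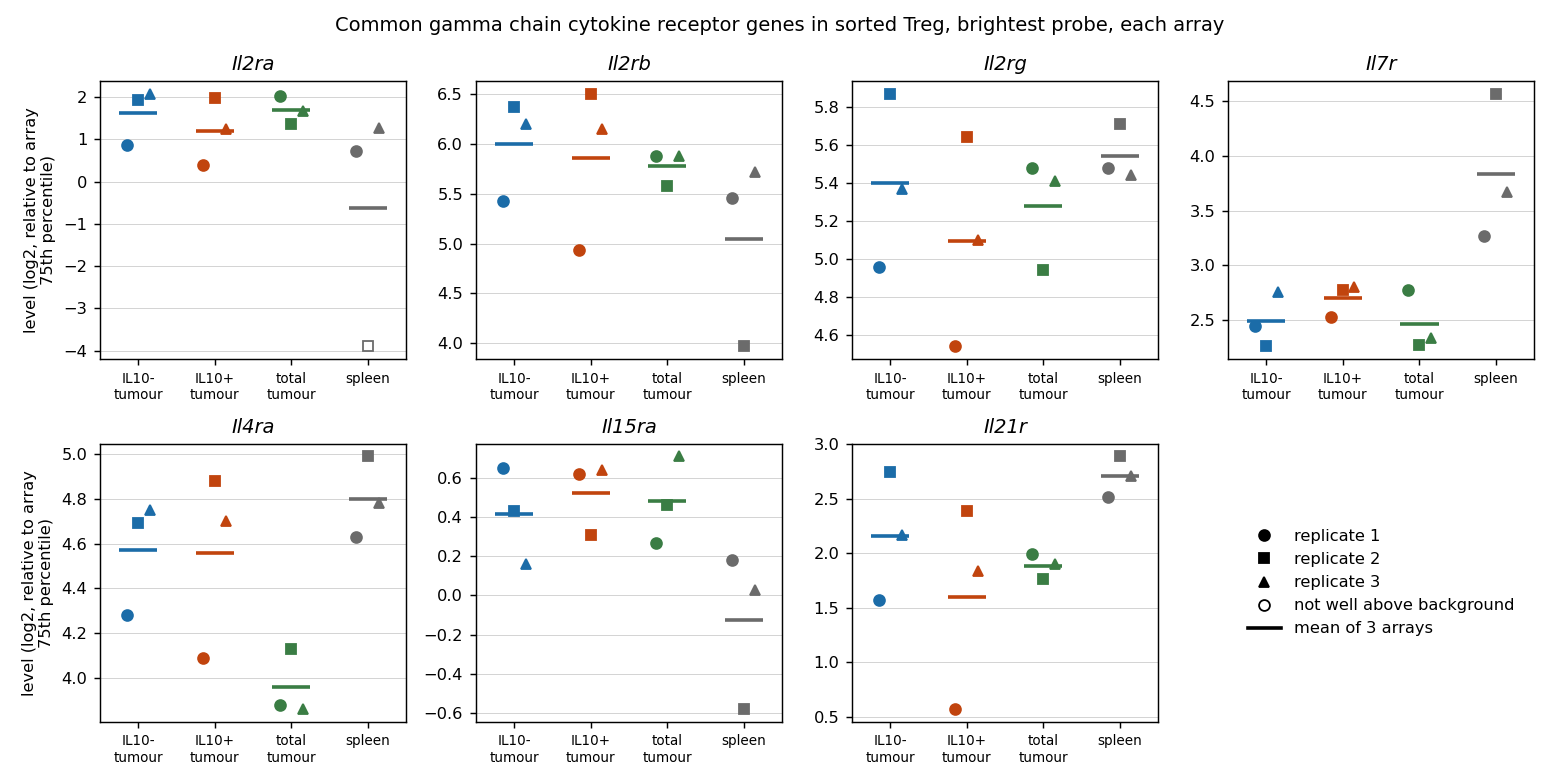
Level of each receptor gene on each of 12 arrays (log2, relative to the array's 75th percentile), by group, with the mean of 3 arrays as a bar. Il7r sits between 2.26 and 2.80 in the tumour groups and between 3.27 and 4.57 in spleen, while the open square of Il2ra in spleen, at -3.90, is the array labelled spleen Treg replicate 2.

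Il2ra encodes CD25, the specific chain of the IL-2 receptor, and its brightest probe lies at chr2:11610658-11610719 on mm8. Its levels were 2.03, 1.37 and 1.67 in total tumour Treg, 0.87, 1.94 and 2.08 in IL10- tumour Treg, 0.40, 1.97 and 1.24 in IL10+ tumour Treg, and 0.72, -3.90 and 1.27 in spleen Treg. The spleen value of -3.90 is not well above background and belongs to the doubted array, on which all 4 Il2ra probes were at background. Total tumour minus spleen was 2.32 ± 1.12 (adjusted p = 0.121), and 0.69 ± 0.49 without that array (adjusted p = 0.312). With that array kept and spleen replicate 3 left out it was 3.28 (adjusted p = 0.0469), and for IL10- tumour Treg 3.22 (adjusted p = 0.0432). The IL10+ and IL10- differences from spleen, 1.84 and 2.26, fell to 0.21 and 0.63 without the doubted array.

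One of the other Il2ra probes, at chr2:11608629-11608688, read higher in total tumour than in spleen Treg by 2.31 ± 0.74 (adjusted p = 0.0313 over 23338 probes), and by 1.23 without the doubted array (adjusted p = 0.0238). It also passed in IL10+ against spleen Treg, at 2.00 (adjusted p = 0.0463), but not without that array, at 0.92 (adjusted p = 0.0584). In IL10- tumour Treg the same probe differed by 1.94 (adjusted p = 0.0526). The remaining 2 Il2ra probes, at chr2:11566086-11566145 and chr2:11610127-11610186, differed in total tumour against spleen Treg by 2.57 (adjusted p = 0.0872) and 1.74 (adjusted p = 0.0518), and by 0.95 and 0.96 without the doubted array.

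**Figure D2:**
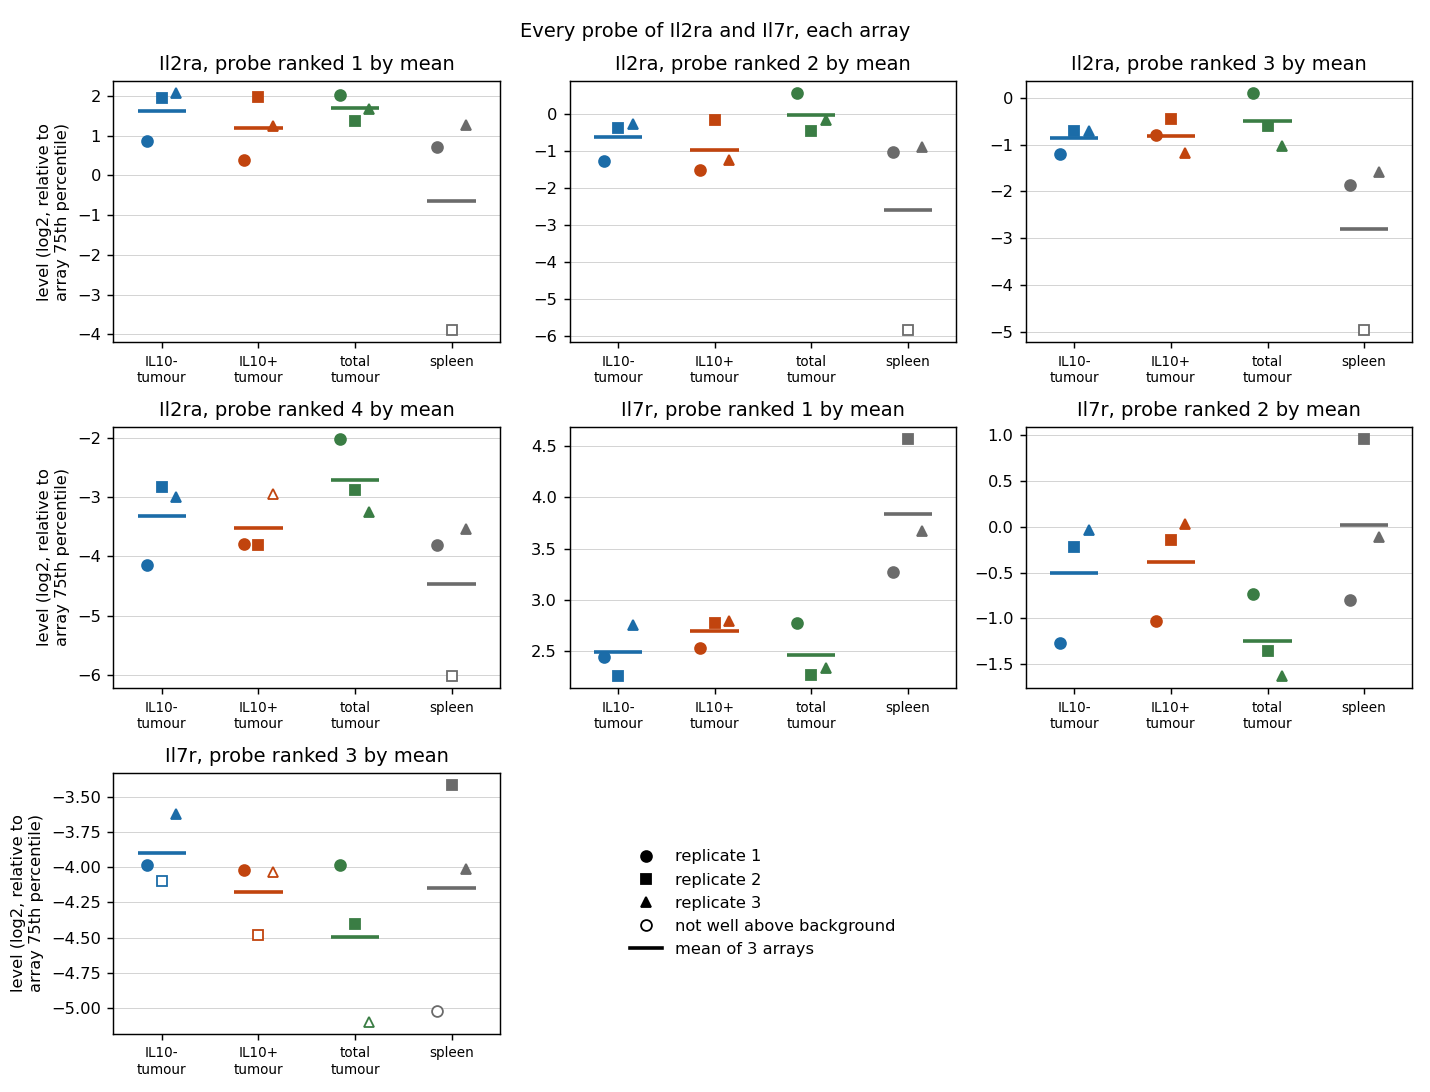
Level of each Il2ra and Il7r probe on each of 12 arrays (log2, relative to the array's 75th percentile), probes ordered by mean level, with the mean of 3 arrays as a bar and open symbols for values not well above background. All 4 Il2ra probes are open on the array labelled spleen Treg replicate 2, and the tumour and spleen values of the 2 dimmer Il7r probes overlap.

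Il2rb, the chain shared by the IL-2 and IL-15 receptors, was bright on every array. Its probe is at chr15:78307934-78307993 on mm8. Its levels were 5.43, 6.37 and 6.20 in IL10- and 4.93, 6.50 and 6.15 in IL10+ tumour Treg, 5.88, 5.58 and 5.88 in total tumour Treg, and 5.46, 3.97 and 5.72 in spleen Treg. The groups overlap, and the lowest value is again on the doubted spleen array. The largest of its 6 differences, IL10- tumour minus spleen, was 0.95 ± 0.51 (adjusted p = 0.147), or 0.41 without that array. The total and IL10+ differences from spleen were 0.73 and 0.81, and 0.19 and 0.27 without it.

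Il2rg, the common chain itself, has a probe at chrX:97468402-97468915 on mm8. It read 4.96, 5.87 and 5.37 in IL10-, 4.54, 5.64 and 5.10 in IL10+, 5.48, 4.94 and 5.41 in total tumour and 5.48, 5.71 and 5.44 in spleen Treg. The groups overlap, and its 6 differences, between -0.45 and 0.12, did not pass the test. Those from spleen were -0.27 for total, -0.45 for IL10+ and -0.14 for IL10- tumour Treg, and -0.18, -0.37 and -0.06 without the doubted array. With normexp background the IL10+ difference from spleen was -1.75 and passed (adjusted p = 0.0122). On the doubted spleen array Il2rg was the highest of the 3 spleen values, unlike Il2ra and Il2rb.

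Il4ra, the specific chain of the IL-4 receptor, which is also used with IL-13, was lower in total tumour than in spleen Treg. Its probe is at chr7:125368771-125368830 on mm8. Its levels were 3.88, 4.13 and 3.86 in total tumour Treg and 4.63, 4.99 and 4.78 in spleen Treg, without overlap. The difference was -0.84 ± 0.22 (adjusted p = 0.0131), and -0.75 without the doubted array (adjusted p = 0.0466). It passed with slide as a block, but not with normexp background (-1.04, adjusted p = 0.18) or median scaling (-0.91, adjusted p = 0.084), nor with the doubted array left out and slide as a random block (-0.72, adjusted p = 0.0616). The VERT-X fractions read 4.28, 4.69 and 4.75 in IL10- and 4.09, 4.88 and 4.70 in IL10+ tumour Treg. IL10- exceeded total tumour Treg on every array, by 0.61 ± 0.22, and this did not pass (adjusted p = 0.233). The IL10+ and IL10- differences from spleen were -0.24 and -0.23, or -0.15 and -0.13 without the doubted array. With a scan day block they were -0.71 and -0.93. Both rest on IL10+ replicate 1, the only VERT-X array scanned on the day of the spleen arrays. The IL10+ difference passed with normexp background, at -1.46 (adjusted p = 0.0279).

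Il15ra, the specific chain of the IL-15 receptor, was higher in IL10+ tumour than in spleen Treg by a small margin. Its brightest probe spans chr2:11641979-11648480 on mm8. It read 0.62, 0.31 and 0.64 in IL10+ and 0.65, 0.43 and 0.16 in IL10- tumour Treg, 0.27, 0.46 and 0.71 in total tumour Treg, and 0.18, -0.58 and 0.03 in spleen Treg. The IL10+ arrays all lie above the spleen arrays. The difference was 0.65 ± 0.23 (adjusted p = 0.0365), but 0.42 without the doubted array (adjusted p = 0.125), and the call was lost under 15 of 27 alternative settings. Among these 15 were the settings without IL10+ replicate 1 (0.60, adjusted p = 0.0832), IL10+ replicate 3 (0.59, 0.0959), total tumour replicate 2 (0.65, 0.052) and spleen replicate 3 (0.73, 0.0513). Total tumour minus spleen was 0.61 (adjusted p = 0.0541), 0.38 without the doubted array (adjusted p = 0.18) and 0.76 without spleen replicate 1 (adjusted p = 0.0393). IL10- tumour minus spleen was 0.54 (adjusted p = 0.0731), 0.31 without the doubted array and 0.69 without spleen replicate 1 (adjusted p = 0.0482). The second Il15ra probe, spanning chr2:11641451-11648437, differed by 0.69 in total tumour (adjusted p = 0.06) and by 0.50 in IL10+ tumour Treg (adjusted p = 0.143).

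Il21r, the specific chain of the IL-21 receptor, has a probe at chr7:125423785-125423844 on mm8. It read 2.52, 2.89 and 2.71 in spleen Treg, 1.99, 1.76 and 1.90 in total tumour, 0.57, 2.39 and 1.84 in IL10+ and 1.57, 2.75 and 2.17 in IL10- tumour Treg. The total tumour and IL10+ arrays lay below all spleen arrays, and the IL10- arrays overlapped them. The differences were -0.82 ± 0.43 for total tumour (adjusted p = 0.146), -1.11 for IL10+ (adjusted p = 0.051) and -0.54 for IL10- tumour Treg (adjusted p = 0.312). Without the doubted array they were -0.73, -1.02 and -0.45, and none passed. Total tumour against spleen passed without IL10+ replicate 1 (-0.82, adjusted p = 0.0398), an array that enters only through the pooled spread. IL10+ against spleen passed without IL10- replicate 1 (-1.11, adjusted p = 0.0425), IL10- replicate 2 (-1.11, 0.0458) or IL10+ replicate 2 (-1.51, 0.0138). It also passed with normexp background (-1.98, 0.00167), median scaling (-1.58, 0.0129), a replicate block (-1.11, 0.0284) and the filter on all arrays of a group (-1.11, 0.045). Total against spleen also passed with only its 6 arrays (-0.82, 0.00484), and IL10- against spleen with a scan day block (-2.09, 0.0141).

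Between IL10+ and IL10- tumour Treg, 0 of 7 receptor genes passed in limma, where 0.0515% of all features did. An unadjusted p under 0.05 was found for 0 of the 7 and for 4.64% of features. The 7 differences ran from -0.57 for Il21r to 0.21 for Il7r, and every pair of groups overlapped, where 7.31% of features did not. On the slide that held 1 IL10+ and all IL10- arrays, IL10+ was higher for Il2ra by 0.34, Il2rb by 0.50, Il2rg by 0.24, Il4ra by 0.31 and Il21r by 0.22. These 5 signs are opposite to those over all arrays, but the IL10- mean there includes replicate 1, its lowest array for all 5. Against IL10- replicate 2 alone, IL10+ replicate 2 was lower for Il2rg (5.64 against 5.87) and Il21r (2.39 against 2.75). It was higher for Il2ra, Il2rb and Il4ra. On the slide that held IL10+ replicate 1 and 2 total tumour arrays, IL10+ minus total was -1.29 for Il2ra, -1.31 for Il21r, -0.80 for Il2rb and -0.67 for Il2rg. Il2ra, Il2rb, Il2rg, Il4ra and Il21r were lowest in replicate 1 of both VERT-X fractions. That is 71.4% of the members, and 28.9% of all features share the pattern. Cd3e also read low on those arrays, at 2.08 and 1.73 against 4.80 to 5.87 on the other VERT-X arrays, and 2.62 to 3.42 on the FoxP3-EGFP arrays. Cd4 read 0.25 and -0.17 against 2.16 to 2.84 on the other VERT-X arrays. Cd3g (5.39 and 5.40 against 5.70 to 6.10) and Ctla4 (4.84 and 4.92 against 5.12 to 5.33) were lower by less. The 8 Treg and CD4 T cell markers summed to 8.35 and 7.97 on replicate 1, the lowest in each fraction. Fibroblast markers summed to 7.77 and 8.08 on replicate 1, the highest values in each fraction. Markers of other cells were not highest there. Macrophage and monocyte markers summed to 8.68, the lowest in IL10-, and 9.15, between the other values in IL10+. CD8 T and NK cell markers (2.99 and 3.14) and epithelial tumour cell markers (0.55 and 0.49) were lowest in both fractions. The part of these markers in the receptor levels was not tested.

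**Figure D3:**
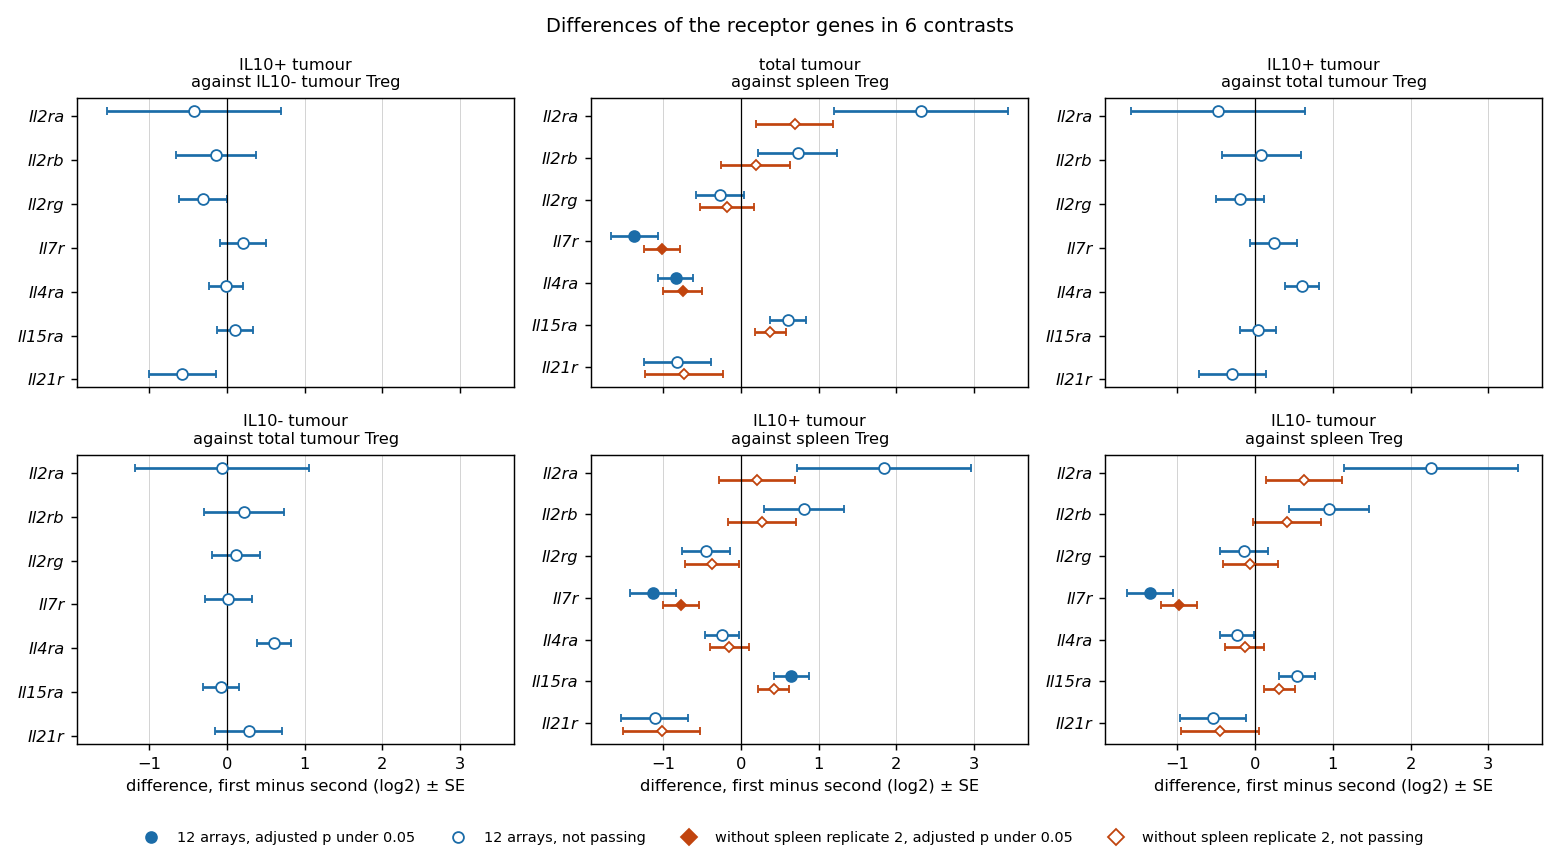
Differences of the 7 receptor genes in the 6 comparisons (log2, first group minus second, with SE); circles use 12 arrays, diamonds leave out the array labelled spleen Treg replicate 2, and filled symbols have an adjusted p under 0.05. Il7r is filled in all 3 comparisons with spleen with and without that array, and Il15ra in IL10+ against spleen is filled only with it.

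Markers of other cells differed between tumour and spleen arrays. The summed level of 10 B cell markers was 5.68 to 6.61 in spleen and 0.65 to 2.13 in tumour arrays. The 12 macrophage and monocyte markers summed to 8.50 to 9.75 in tumour and 5.43 to 6.71 in spleen arrays, and the 8 fibroblast markers to 6.42 to 8.08 in tumour and -1.46 to 1.66 in spleen arrays. In spleen, all 10 B cell markers were well above background on all 3 arrays, as were 11 of 12 macrophage markers, with Trem2 not above background on any. In total tumour Treg 6 of the 10 B cell markers were not well above background on any array, Cd79a and Pax5 among them. In the same group 2 were well above background on all 3 arrays. Il4ra, Il21r and Il7r are also expressed by cells other than Treg. The part of these other cells in their differences was not tested, nor in those of the signalling genes and ligands that follow.

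Among 42 other genes of common gamma chain signalling, 41 were on the array and 37 passed the filter on low signal. In total tumour against spleen Treg 10 were higher and 7 lower, with a median of -0.08 against -0.01 over all features; without the doubted array the counts were 8 and 7. In IL10+ tumour against spleen Treg 8 were higher and 11 lower (7 and 11 without it; median -0.36 against -0.06). In IL10- tumour against spleen Treg 8 were higher and 11 lower (6 and 8 without it; median -0.02 against 0). The shares called were 45.9%, 51.4% and 51.4% of the 37, near the 42.3%, 50.8% and 49% of all features. The higher counts and these shares include ligands that passed the filter only through tumour arrays, so those calls carry no weight. They are Il7 and Il15 in total, Il7, Il13 and Il15 in IL10+, and Il7 and Il13 in IL10- tumour against spleen Treg. None passed (limma) in the 3 comparisons among tumour groups, where 4 (IL10+ against IL10-), 3 (IL10+ against total) and 6 (IL10- against total) had an unadjusted p under 0.05. Il13, well above background on VERT-X arrays alone, is in each of these counts. With slide as a fixed block, 6, 3 and 3 passed in total, IL10+ and IL10- tumour against spleen Treg, where 21.7%, 15.4% and 7.74% of all features did. With the filter on all arrays of a group, 2 passed in IL10- against total tumour Treg.

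Bcl2, an anti-apoptotic gene, had the widest fall of these in total tumour against spleen Treg. It read 2.10, 2.24 and 2.16 in spleen and -1.20, -1.19 and -1.28 in total tumour Treg, a difference of -3.39 ± 0.30 (adjusted p = 2.59e-05). It differed by -3.55 in IL10+ and -3.10 in IL10- tumour Treg. Sh2b3, an adaptor that restrains cytokine signalling, read 1.49, 1.34 and 1.46 in spleen and -0.96, -0.28 and -0.66 in total tumour Treg, a difference of -2.06 ± 0.18 (adjusted p = 2.13e-05), and differed by -1.78 in IL10+ and -1.95 in IL10- tumour Treg. Mcl1, another anti-apoptotic gene, differed by -0.82 ± 0.14 in total tumour Treg (adjusted p = 0.00119). These 3 differences moved little without the doubted array, to -3.35, -2.11 and -0.89.

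Of the signal transducers, Stat5b differed from spleen by -0.79 in total tumour, -1.65 in IL10+ and -1.32 in IL10- tumour Treg, and Jak1, a kinase bound by receptor chains other than the common one, by -0.75, -1.04 and -0.81; all passed, with and without the doubted array. Akt1 was higher by 0.54, 0.60 and 0.87, all passing with and without it. The feedback genes Socs2 and Cish were higher in total tumour than in spleen Treg by 2.76 ± 0.79 and 1.86 ± 0.58 (adjusted p = 0.0179 and 0.0276). Without the doubted array, on which Cish was 1.74 against 4.11 and 4.47, they were higher by 1.82 and 1.01. Of the other feedback genes listed, Socs3 was higher by 0.61 (0.58 without that array) and Socs1 differed by 0.01 (-0.28 without it). Cish did not pass in IL10+ (1.0, adjusted p = 0.177; 0.15 without that array) or IL10- tumour Treg (1.30, adjusted p = 0.0909; 0.45 without it). Socs2 passed in IL10+ tumour Treg, at 2.62 (1.69 without it), and in IL10- tumour Treg at 2.09 (adjusted p = 0.0488), but not without it (1.16, adjusted p = 0.155). Crlf2, the TSLP receptor chain that pairs with Il7r, was higher in total tumour Treg by 1.06 (adjusted p = 0.00391; 0.94 without the doubted array, adjusted p = 0.0163), at 5.97, 5.48 and 5.97 against 5.01, 4.52 and 4.73.

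**Figure D4:**
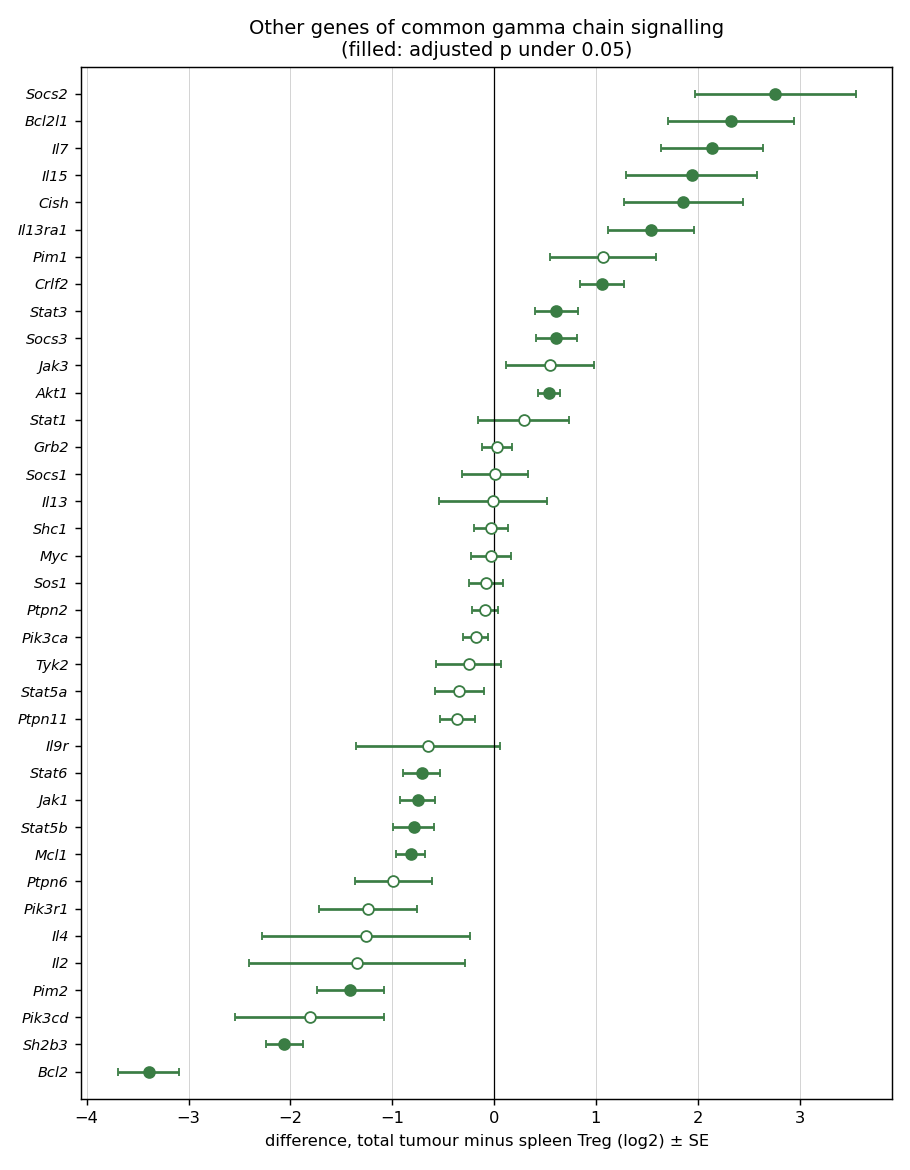
Differences of 37 other genes of common gamma chain signalling in total tumour minus spleen Treg (log2, with SE), ordered by size; filled symbols have an adjusted p under 0.05. Bcl2 at -3.39 and Sh2b3 at -2.06 are lowest, and Socs2 at 2.76 is highest. The filled symbols include Il7 and Il15, which passed the filter on low signal only through tumour arrays.

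Of the ligands, Il7 and Il15 were not well above background on any spleen array. The spleen mean was taken at the lowest signal well above background on each array, or at the probe's own signal where higher. The tumour means took each signal as read. Il7 was well above background on only 5 tumour arrays and Il15 on 7, so some tumour values were themselves at background. The ratios of these means are therefore not lower bounds. For total tumour against spleen Treg they were 1.24-fold for Il7 and 1.99-fold for Il15. In IL10+ tumour Treg they were 1.19-fold and 2.26-fold. In IL10- tumour Treg the Il15 ratio was 1.29-fold, and none is given for Il7. Both genes passed the filter on low signal only through tumour arrays, so no p-values are given.

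The genes whose levels followed each receptor most closely over 12 arrays, of 12640 compared (predicted, clone-named and antigen receptor segment genes left out), are given as a description. For Il7r these were Setd4 (Pearson r = 0.946) and Parp6 (0.945), which fell to 0.47 and 0.456 over the 9 tumour arrays. Both read higher in spleen, Setd4 at 1.40 ± 0.48 (SD, n = 3) against -0.25 to -0.04 in group means of the tumour arrays. For Il2ra they were Niban1 (0.98, and 0.856 over tumour arrays) and Sh3bgrl (0.978 and 0.972), and for Il2rb Sytl1 (0.974 and 0.976) and Tjp3 (0.968 and 0.949). Il2rg followed Itgb2 (0.958 and 0.958) and Slc25a35 (0.957 and 0.965), and Il21r followed Spata2l (0.978 and 0.972) and Slc25a35 (0.965 and 0.971). For Il4ra they were Unk (0.955 and 0.941) and Patz1 (0.954 and 0.949), and for Il15ra Oaz2 (0.945 and 0.739) and Kif20a (0.944 and 0.744). Arrays of 1 group share tissue and reporter strain, and each r was chosen as a maximum.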

How the data were processed

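RNA of 12 sorted Treg samples was hybridised to 1-colour Agilent arrays, whose images were quantified, per the file headers, by Agilent Feature Extraction (version 9.5.3.1). The authors' deposited intensity values (background-subtracted processed signal) were used; the deposited series table holds log10 values with equal column medians of 1.33, its normalization not given in the sources used here, and served as an alternative. Each intensity was put on the log2 scale and set relative to its array's 75th percentile. Control spots were left out, spots of a probe were averaged, and a gene was kept if well above background on at least 3 arrays (15532 features). limma 3.58.1 in R 4.3.3 fitted 4 groups over 12 arrays, with 6 contrasts and Benjamini-Hochberg adjustment within each; a call is an adjusted p under 0.05. The fit was tested on simulated data. Fits used 27 alternatives, described in the closing section. The number of arrays limits the precision. Slides and scan days came from the headers: 4 slides, 2 scan days. Named were all members with every probe, the 2 genes most correlated with each, and the pathway genes with the smallest p in each contrast. Other pathway genes named here were chosen after their values were seen. The members and lists were chosen with earlier results of these data known. Genes were named through RefSeq accessions for 23374 probes and by symbol or synonym for the rest that matched; 6303 probes had no gene name.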

Additional observations from a re-analysis of the deposited data

How the results depend on the processing

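Replicate numbers were not used to pair the samples in the main fit. Correlations of same-numbered deviations between IL10- and IL10+ tumour Treg were 0.41, 0.43 and -0.24. The same number was the closest match for replicates 1 and 2, but not for replicate 3. With the replicate block over all arrays, 0, 2, 0, 0, 3 and 1 members passed in IL10+ against IL10-, total against spleen, IL10+ against total, IL10- against total, IL10+ against spleen and IL10- against spleen; with the replicate block on only the 6 arrays of a contrast, IL10+ and IL10- against spleen fell to 0. Total against spleen (2 members) fell to 1 under normexp background, median scaling, the slide block and the next brightest probe. It was also 1 with spleen replicate 2 left out and a slide random block. The count rose to 3 with the filter on all arrays of a group or only the 6 arrays. It was 3 as well without IL10+ replicate 1, to which the scan day block amounts for this contrast. The count was also 3 without spleen replicate 1 or spleen replicate 3. It stayed at 2 under the mean of probes, where Il7r was lost (adjusted p = 0.0544) and Il15ra gained (0.0438), and under the replicate block on 6 arrays, where Il7r was lost (0.0525) and Il21r gained (0.0275). IL10+ against spleen (2) became 4 under normexp, 1 without the filter, 1 with only the 6 arrays, 1 with spleen replicate 2 left out and a slide random block, and 0 under the slide block, the next brightest probe and the mean of probes; leaving out 1 replicate gave 1 to 3. IL10- against spleen (1) became 0 under the slide block, the next brightest probe and the mean of probes, and 1 to 2 leaving out 1 replicate. A scan day block, under which Il7r was lost, ties this contrast to spleen through IL10+ replicate 1 alone, so no count is given. The scan day block, the replicate block on 6 arrays and the joint setting were chosen after seeing the data.

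Values that changed sign had not passed the test. Slide block: IL10+ against IL10- Il2ra 0.34, Il2rb 0.50, Il2rg 0.24, Il4ra 0.31, Il15ra -0.11, Il21r 0.22; IL10+ against total Il2rb -0.80; IL10- against total Il2rb -1.30, Il2rg -0.91, Il7r -0.28, Il4ra -0.23, Il15ra 0.36, Il21r -1.53; IL10- against spleen Il2rb -0.47. Scan day block: IL10+ against IL10- Il2rb 0.32, Il4ra 0.22; IL10+ against total Il2rb -0.85; IL10- against total Il2rb -1.17, Il2rg -0.71, Il7r -0.23, Il4ra -0.09, Il15ra 0.08, Il21r -1.27; Il2rb against spleen -0.12 in IL10+ and -0.44 in IL10-. Normexp: Il7r IL10+ against IL10- -0.72; IL10+ against total Il2rb -0.96, Il7r -0.69, Il4ra -0.42; Il2ra IL10- against total 0.03; Il2rb IL10+ against spleen -0.48. Median scaling, which moved the median of all features to -0.43 (IL10+ against total), -0.38 (IL10- against total), -0.53 (IL10+ against spleen) and -0.45 (IL10- against spleen): IL10+ against total Il2rb -0.31, Il7r -0.16, Il15ra -0.36; IL10- against total Il2rb -0.16, Il2rg -0.26, Il7r -0.36, Il21r -0.10. Il15ra IL10+ against total was -0.19 by the next brightest probe and -0.08 by the mean of probes. Il4ra IL10+ against IL10- was 0.06 with quantile normalization, 0.07 in the deposited table, 0.03 with a slide random block and 0.04 with that and spleen replicate 2 left out. The slide random block also gave 0.00 for Il2rb IL10+ against total and 0.00 for Il2rg IL10- against total; with spleen replicate 2 left out these were -0.04 and -0.06, with Il2rb -0.03, Il7r -0.01 and Il21r -0.01 for IL10- against total. Ranges leaving out 1 replicate: IL10+ against IL10- Il2rb -0.46 to 0.32, Il4ra -0.18 to 0.22, Il15ra -0.02 to 0.22; IL10+ against total Il2rb -0.24 to 0.55, Il2rg -0.46 to 0.09, Il15ra -0.06 to 0.16, Il21r -0.68 to 0.23; IL10- against total Il2ra -0.28 to 0.32, Il2rg -0.11 to 0.35, Il7r -0.11 to 0.18, Il15ra -0.18 to 0.06, Il21r -0.01 to 0.58; Il2rg IL10- against spleen -0.38 to 0.08. Among all features, the share of calls that were higher in IL10+ against spleen was 47.1%, and 30.8% under median scaling and 37.7% under normexp; in IL10- against spleen it was 49.7% and 32% under median scaling. Over all alternatives, calls among all features ran from 0 to 19 in IL10+ against IL10- (8 as reported), 0 to 482 in IL10+ against total (31), 0 to 187 in IL10- against total (23), 1871 to 9452 in total against spleen (6566), 2390 to 11503 in IL10+ against spleen (7894) and 1202 to 11176 in IL10- against spleen (7615). Pathway genes called ran from 6 to 21 (17), 3 to 19 (19) and 3 to 20 (19) in total, IL10+ and IL10- against spleen, and from 0 to 0, 0 to 1 and 0 to 2 (each 0 as reported) in IL10+ against IL10-, IL10+ against total and IL10- against total. The pathway counts of 17, 19 and 19 include ligands that passed the filter only through tumour arrays. The Il7r calls and the Il4ra call held with each replicate left out in turn. The causes were not tested.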
